A study of Mus musculus with 8 samples.

Results

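Lyz2, encoding the lysozyme of macrophages, monocytes and neutrophils, and 9 markers of blood monocytes and neutrophils (S100a8, S100a9, Ly6c2, Ccr2, Plac8, Ngp, Camp, Lcn2 and S100a6) were followed in RNA from sorted hypothalamic microglia. The genes were chosen by symbol as markers that blood cells would bring, and all 10 were found, each in 1 row, among the 35583 genes of the deposited tables. The 8 bulk RNA-seq libraries came from microglia of young wild-type mice whose cells were collected 20 hours after an injection of plasma protein carrying a dye. Cells with the dye gave 4 plasma-positive libraries and cells without it gave 4 plasma-negative libraries. All 8 libraries share the genotype, the region, the injection and the time. The labels do not give the sorting markers or say whether a library is 1 animal or a pool, so p-values measure only the spread between these libraries, which may be technical.

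Neutrophils are short-lived blood phagocytes that store antimicrobial proteins in granules formed in sequence during their maturation in bone marrow. Primary granules hold elastase and myeloperoxidase, specific granules hold lactoferrin, cathelicidin and lipocalin, and the cytosol is filled with the calcium-binding pair S100A8 and S100A9. Classical monocytes carry Ly6C and CCR2, the receptor through which CCL2 draws them into tissue, while resident microglia express neither marker at high level. Lyz2 is shared by all of these myeloid cells, so its transcript alone does not name a cell type.

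The libraries held between 2963094 and 21422738 counts. All 13 microglial identity genes of a fixed list had more than 3 counts in every library, and their summed level was 77345 to 91594 CPM (read counts scaled for library size with TMM factors) in plasma-negative and 85212 to 91711 CPM in plasma-positive libraries. Of the 13, all tested, 2 were called, where 1.41% of all 13277 tested genes were: Csf1r, the receptor on which microglia depend, with a log2 fold change of 0.28, and Olfml3, a secreted microglial protein, with 0.37 (edgeR, adjusted p = 0.00489 and 0.00647). Plasma-positive replicate 3 stood apart in the genes described here. Together the 9 markers other than Lyz2 had 19958 counts in it, 0.0971% of its total (exact binomial 95% interval 0.0957 to 0.0984), and between 1 and 220 counts in each of the other 7 libraries. In plasma-positive replicate 2 markers of other brain cells were high instead, with a summed level of the 5 neuronal genes of 242 CPM. Each result that rests on plasma-positive replicate 3 is given with and without it. Intervals and floors cover counting error only, because reads copied in amplification were not collapsed by a molecular tag.

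**Figure D1:**
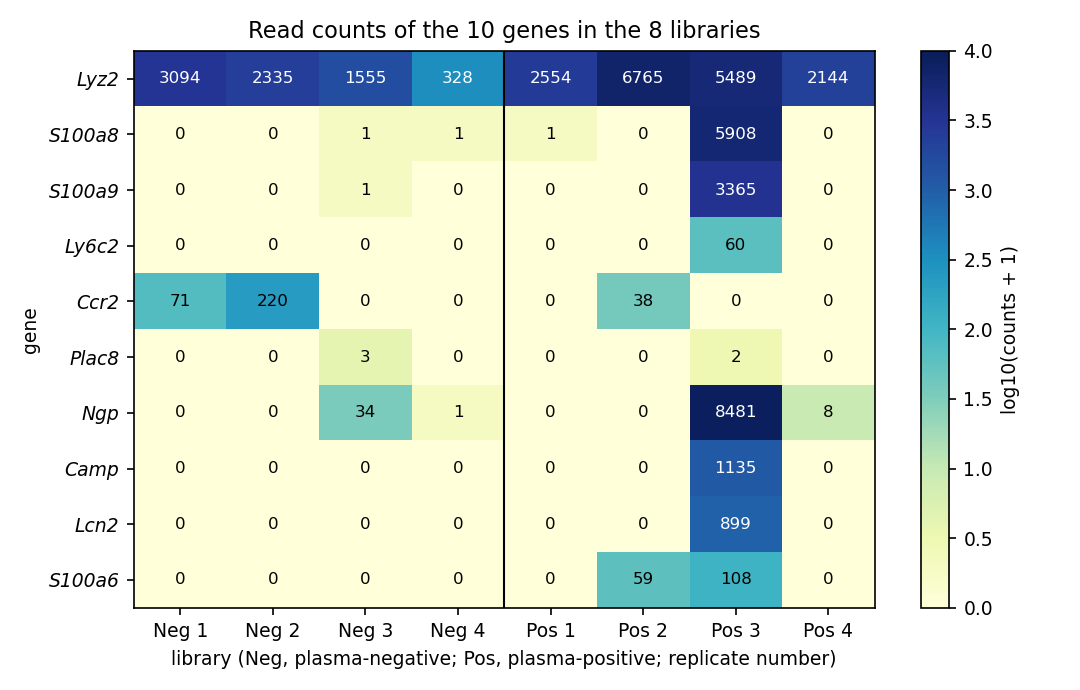
Read counts of the 10 genes (rows) in the 4 plasma-negative (Neg) and 4 plasma-positive (Pos) libraries (columns); colour is log10(counts + 1) and each cell prints its count. Lyz2 was present in all 8 libraries, whereas S100a8, S100a9, Ngp, Camp and Lcn2 had 899 to 8481 counts in plasma-positive replicate 3 and at most 34 in any other library.

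Lyz2 was the only one of the 10 genes seen in all libraries, and it was higher in plasma-positive microglia. The plasma-negative libraries (replicates 1 to 4) had 137, 147, 90.5 and 110 CPM, and the plasma-positive libraries had 281, 344, 279 and 240 CPM. The groups did not overlap. The lowest plasma-positive library, replicate 4, lay above the highest plasma-negative one, replicate 2. The mean went from 121 ± 25.6 to 286 ± 43.2 CPM (SD, n = 4). The fitted difference was 2.35-fold, or 1.24 ± 0.17 (SE) on the log2 scale (edgeR quasi-likelihood test, adjusted p = 0.00571). Per kilobase of exon, the authors' values were 67.3 ± 13.8 and 174 ± 29.6 RPKM (SD, n = 4). In bulk RNA, a larger share of cells with a transcript and more of it per cell cannot be told apart.

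Of the 10 genes, 1 passed the filter on low counts and 1 was called, against 1.41% of the 13277 genes tested that were called in either direction and 0.844% that were called higher. One tested gene allows no statement on the list as a whole. The other 9 failed the filter, which asks for counts in about as many libraries as a group holds. Without the filter all 10 were tested, Lyz2 was again the 1 gene called (0.932% of 19844 genes were called), and adjusted p for the other 9 ran from 0.0698 to 0.919 in edgeR.

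Lyz2 did not follow the neutrophil markers. In plasma-positive replicate 3 its 279 CPM was the third of the 4 plasma-positive values, below replicates 1 and 2, in which S100a9, Camp and Lcn2 had no count. Without that library its log2 fold change was 1.25 ± 0.19 (SE; edgeR, adjusted p = 0.0182, where 0.673% of 13827 genes were called). Leaving out each of the 8 libraries in turn gave between 1.12 and 1.34, with adjusted p in edgeR between 0.0142 and 0.0234. Correcting each library for exon length gave 1.03 (edgeR, adjusted p = 0.0271).

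**Figure D2:**
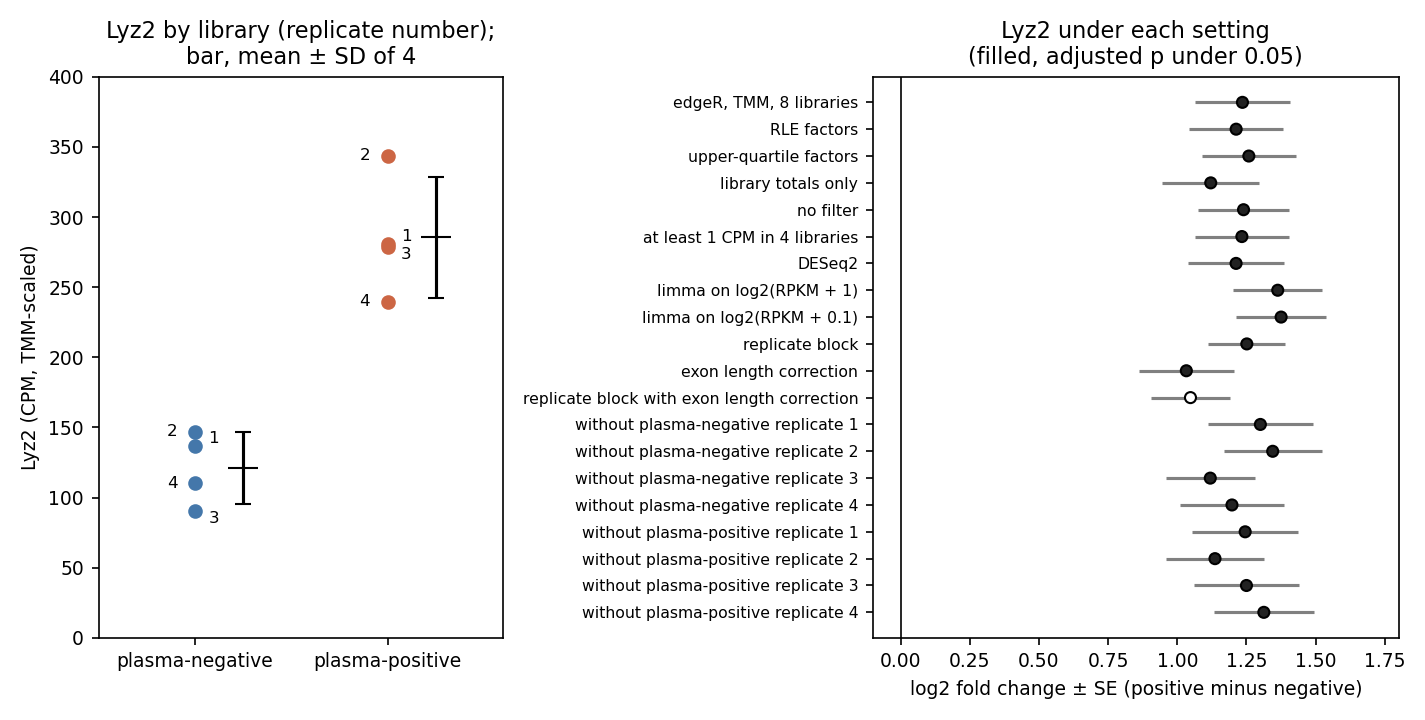
Left, Lyz2 in CPM in each library, numbered by replicate, with the mean ± SD of each group of 4. Right, log2 fold change of Lyz2 (plasma-positive minus plasma-negative) ± SE in the edgeR fit of all 8 libraries and in 19 other fits, where filled symbols have an adjusted p under 0.05. All values lie between 1.03 and 1.38, and the open symbol is the fit that combines the replicate number with the exon length correction, in which 0.0753% of all tested genes and none of the 10 were called.

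Lyz2 (ENSMUSG00000069516, chromosome 10, 117277331 to 117282321, mm10, which is GRCm38) has a near copy next to it, Lyz1 (ENSMUSG00000069515, chromosome 10, 117287797 to 117292868), the lysozyme of Paneth cells. In GENCODE M21 their coding sequences, 444 bases each, were 95.0% identical, and 15.4% of the 50-base windows of the Lyz2 transcript occurred unchanged in Lyz1. Lyz1 had 1 count in plasma-positive replicate 3 and 0 in the other libraries. The read length and the handling of reads that match both genes are not given in the sources used here, so the split between the copies is uncertain, and reads given to Lyz1 add 1 count in all to those of Lyz2.

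The 5 tested genes whose levels over the 8 libraries were most like Lyz2 were Mt1, Smdt1, Ap1s1, Lgals3bp and Idh3b. Likeness was the root mean square difference in log2 CPM, each gene centred on its own mean, over 8889 other genes at 10 CPM or more. It ran from 0.21 to 0.24. The group difference is part of this measure, so a higher level in plasma-positive libraries was set by the choice. The fold changes and calls of these genes describe them and are no separate result. Mt1, encoding a metallothionein that binds zinc and copper, had means of 56.1 ± 5.84 and 109 ± 17.3 CPM (SD, n = 4) and a log2 fold change of 0.96 (edgeR, adjusted p = 0.0225). Lgals3bp, encoding a secreted galectin-binding glycoprotein, had means of 175 ± 26.3 and 332 ± 15.1 CPM and a log2 fold change of 0.92 (edgeR, adjusted p = 0.00571). Idh3b, encoding a subunit of mitochondrial isocitrate dehydrogenase, had means of 52.3 ± 9.76 and 96.0 ± 7.45 CPM and a log2 fold change of 0.87 (edgeR, adjusted p = 0.0376). Smdt1, encoding a regulator of the mitochondrial calcium uniporter, and Ap1s1, encoding an adaptor subunit of clathrin coats, had log2 fold changes of 0.89 and 1.01 and were not called (edgeR, adjusted p = 0.0829 and 0.0620). Both were called with DESeq2 (adjusted p = 0.0160 and 0.00534) and with limma on RPKM (0.0131 and 0.0157 for Smdt1, 0.0113 and 0.0123 for Ap1s1). The call of Lgals3bp held whichever library was left out. It was lost in the fit that combines the replicate number with the exon length correction (edgeR, adjusted p = 0.0817). Mt1 lost its call without plasma-negative replicate 1 or 3 or plasma-positive replicate 1, 2 or 3 (edgeR, adjusted p from 0.0613 to 0.0788). Its log2 fold change in these fits was 0.87 to 0.99. Mt1 was also not called with the exon length correction or with the replicate number as a block (edgeR, adjusted p = 0.0980 and 0.0722). Idh3b lost its call without any one library other than plasma-negative replicate 1 (edgeR, adjusted p from 0.0672 to 0.115). Its log2 fold change in these fits was 0.78 to 0.91. Library totals only, the exon length correction and the replicate number as a block ended the call too (edgeR, adjusted p = 0.0668, 0.0980 and 0.0775).

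The neutrophil genes among the 10 were found almost entirely in 1 library. Ngp, encoding a cathelicidin-related protein of specific granules, had 8481 counts (430.4 CPM) in plasma-positive replicate 3. S100a8 and S100a9, encoding the subunits of calprotectin, had 5908 and 3365 counts there (299.9 and 171 CPM). Camp, encoding the antimicrobial peptide cathelicidin, had 1135 counts (57.6 CPM), and Lcn2, encoding the siderophore-binding protein lipocalin 2, had 899 counts (45.6 CPM). These 5 genes were thus high together in the same library.

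In the other 7 libraries the same genes were at or near 0. Camp and Lcn2 had 0 counts in all 7, so that their level in plasma-positive replicate 3 was at least 1850-fold and at least 1465-fold higher than in the other libraries together, taking a floor of 3 counts over the 7. S100a8 had 1 count in each of plasma-negative replicates 3 and 4 and plasma-positive replicate 1, and S100a9 had 1 count in plasma-negative replicate 3. The ratio of CPM in plasma-positive replicate 3 to that in the other 7 was 9629 for S100a8 (exact 95% counting interval 3293 to 46705) and 16453 for S100a9 (2951 to 650047). Ngp had 34 counts in plasma-negative replicate 3, 8 in plasma-positive replicate 4, 1 in plasma-negative replicate 4 and 0 in the remaining 4, and its ratio was 964 (715 to 1334). Depth did not limit this comparison. At the level of plasma-positive replicate 3 the smallest library, plasma-negative replicate 4, would have held 1279 counts of Ngp, 891 of S100a8, 508 of S100a9, 171 of Camp and 136 of Lcn2, and it held 1, 1, 0, 0 and 0.

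Of the counts on S100a8, S100a9 and Ngp together, Ngp made up 47.8% in plasma-positive replicate 3 (8481 of 17754, exact 95% interval 47.0 to 48.5). It made up 94.4% in plasma-negative replicate 3 (34 of 36, 81.3 to 99.3) and all of the 8 counts in plasma-positive replicate 4 (63.1% to 100%). With so few reads, which may be copies of fewer molecules, and 1 library each, these shares are values without a test of a difference. The other 2 libraries with any such count held too few for a share, with 1 count each of Ngp and S100a8 in plasma-negative replicate 4 and 1 of S100a8 in plasma-positive replicate 1.

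Means over the 4 plasma-positive libraries were set by this 1 library. For S100a8 the mean was 75.0 ± 149.9 CPM in plasma-positive and 0.0987 ± 0.161 CPM in plasma-negative libraries (SD, n = 4), and over the 3 plasma-positive libraries without replicate 3 it was 0.0367 CPM. For Ngp the means were 108 ± 215 and 0.579 ± 0.947 CPM (SD, n = 4), and 0.298 CPM without replicate 3. S100a9, Camp and Lcn2 had a plasma-positive mean of 0 without it. None of the 5 was called in any edgeR fit that tested it. The higher means of these 5 genes thus rest on 1 of the 4 plasma-positive libraries.

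The bases upstream of the genes that were high together, and of Lyz2, which did not follow them, are shown so that they can be compared. All 10 genes matched the RefSeq promoter table (GRCm38.p6, the build named mm10) by symbol, with 12 start sites in all. Motifs were searched in the 250 bases before each start site, on both strands, as TTGCNNAA, a form of the C/EBP motif, and GAGGAAG, a core of the PU.1 motif. C/EBP factors and PU.1 are main regulators of granulocyte and macrophage genes. Printed, 5′ to 3′ on the gene's strand and with motif matches in capitals, are the bases of that window that lie before the first exon of the gene in GENCODE M21. Ltf, encoding lactoferrin of specific granules, was added after its values were seen. Lcn2 is not printed because its whole window lies inside the GENCODE gene.
Ngp: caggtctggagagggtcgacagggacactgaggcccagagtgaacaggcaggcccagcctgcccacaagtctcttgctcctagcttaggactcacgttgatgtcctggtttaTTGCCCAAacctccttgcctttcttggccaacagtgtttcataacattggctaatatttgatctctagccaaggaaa
Camp: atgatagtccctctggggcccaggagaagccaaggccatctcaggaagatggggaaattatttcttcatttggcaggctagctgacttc
Ltf: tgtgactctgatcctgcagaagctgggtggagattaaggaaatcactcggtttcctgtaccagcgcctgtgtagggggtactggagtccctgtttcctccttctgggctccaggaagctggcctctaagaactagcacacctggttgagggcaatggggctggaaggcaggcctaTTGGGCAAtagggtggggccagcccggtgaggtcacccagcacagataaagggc
S100a8: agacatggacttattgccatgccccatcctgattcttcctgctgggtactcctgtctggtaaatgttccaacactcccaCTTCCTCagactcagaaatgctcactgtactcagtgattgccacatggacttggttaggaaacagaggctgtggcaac
S100a9: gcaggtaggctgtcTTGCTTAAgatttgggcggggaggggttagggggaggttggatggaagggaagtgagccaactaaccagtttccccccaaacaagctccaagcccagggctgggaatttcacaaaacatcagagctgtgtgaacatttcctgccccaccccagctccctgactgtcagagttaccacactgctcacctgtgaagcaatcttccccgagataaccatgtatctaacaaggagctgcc
Lyz2: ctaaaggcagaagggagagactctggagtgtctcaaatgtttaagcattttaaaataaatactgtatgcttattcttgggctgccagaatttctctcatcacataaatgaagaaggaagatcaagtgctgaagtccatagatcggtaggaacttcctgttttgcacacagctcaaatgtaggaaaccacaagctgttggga
The printed stretches are chr9:110419558-110419746 (plus strand) for Ngp, chr9:109849618-109849706 (minus) for Camp, chr9:111019042-111019270 (plus) for Ltf, chr3:90668821-90668977 (plus) for S100a8, chr3:90695722-90695971 (minus) for S100a9 and chr10:117282322-117282522 (minus) for Lyz2. The C/EBP letters were found in the full windows of 4 of the 10 genes (Ngp, with 2 matches, S100a9, Lcn2 and the inner start site of Plac8) and of Ltf, and in 9.56% of all 32851 promoter windows of this length. The PU.1 letters were found in 3 of the 10 (S100a8, Lcn2 and Ly6c2), and in 10.6% of all windows. No match of one motif overlapped the other. Camp and Lyz2 held neither, which says only that these letters are not in these windows. A match is a description of the letters and was not tested as a binding site.

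These genes lie in a few places. In the deposited coordinates (mm10), S100a8 (ENSMUSG00000056054) spans 90668978 to 90670035 on chromosome 3, close to S100a9 (ENSMUSG00000056071, 90692632 to 90695721) and S100a6 (ENSMUSG00000001025, 90612882 to 90624181). Camp (ENSMUSG00000038357) spans 109847379 to 109849617 on chromosome 9 and Ngp (ENSMUSG00000032484) 110419747 to 110423012. Lcn2 (ENSMUSG00000026822) lies on chromosome 2 from 32384633 to 32388252. In GENCODE M21 none of the 10 genes shares an exonic base with another gene (0% of exonic bases). The annotation and strand settings behind the deposited counts are not given in the sources used here. S100a8 and S100a9 were 49.6% identical over their aligned coding sequences and shared no 50-base window.

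Monocyte markers gave low counts that did not form 1 pattern. Ly6c2 (ENSMUSG00000022584, chromosome 15, 75108158 to 75111970), encoding the Ly6C antigen of classical monocytes, had 60 counts (3.05 CPM) in plasma-positive replicate 3 and 0 in the other 7 libraries, at least 97.8-fold higher by the same floor. Its near copy Ly6c1, a marker of brain endothelium, had 65 counts in plasma-positive replicate 2, where Ly6c2 had 0, and 3 counts in plasma-positive replicate 3. The coding sequences of the pair were 81.2% identical, and 32.6% of the 50-base windows of Ly6c2 occurred in Ly6c1. Part of either count could thus belong to the other gene, and how large a part is not known.

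Ccr2 (ENSMUSG00000049103, chromosome 9, 124101950 to 124113557), encoding the chemokine receptor of classical monocytes, had 71 and 220 counts in plasma-negative replicates 1 and 2 and 38 in plasma-positive replicate 2 (3.14, 13.8 and 1.93 CPM). It had 0 counts in the other 5 libraries. Plasma-positive replicate 3 was among these, so Ccr2 was at 0 in the library where Ly6c2 and the neutrophil genes had their highest counts, which at 3 counts allows up to 0.152 CPM. Plac8 (ENSMUSG00000029322, chromosome 5, 100553725 to 100572245), found in both monocytes and neutrophils, had 3 counts in plasma-negative replicate 3, 2 in plasma-positive replicate 3 and 0 elsewhere, at or under the floor of 3 counts throughout.

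S100a6, encoding calcyclin, is made by many cell types besides monocytes. It had 108 counts (5.48 CPM) in plasma-positive replicate 3, 59 in plasma-positive replicate 2 and 0 in the other 6 libraries. Its ratio between plasma-positive replicate 3 and the other 7 libraries was 8.95 (exact 95% counting interval 6.46 to 12.5), far from the ratios of S100a8 and Ngp. In all, 7 of the 10 genes had their highest CPM in plasma-positive replicate 3. The exceptions were Lyz2, highest in plasma-positive replicate 2, Ccr2, highest in plasma-negative replicate 2, and Plac8, highest in plasma-negative replicate 3.

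Some other neutrophil genes of a list fixed without these 10 were high in plasma-positive replicate 3 too. Of the 22 genes of this list, 12 had 0 counts in all libraries. In plasma-positive replicate 3, 8 had more than 3 counts, against 1 or 2 in each other library. Of these 8, 6 had more than 3 counts in that library only. Ltf, which the naming rule picked, had 1874 counts (95.1 CPM) there and 0 in the other 7. Named after their values were seen, the others were Fcnb, a ficolin of immature neutrophils, with 219 counts, Wfdc21 with 146, Pglyrp1, a peptidoglycan-binding granule protein, with 135, Cebpe, the transcription factor of specific granule genes, with 55, and Trem3 with 44. Each of these 5 had 0 counts in the other 7 libraries. Csf3r, the receptor for granulocyte colony-stimulating factor, was the 1 tested gene of the list and behaved differently, with 312 ± 25.3 and 328 ± 38.2 CPM (SD, n = 4) and no call (edgeR, log2 fold change 0.07, adjusted p = 0.856), a sign that turned under 4 other settings. The other 21 genes summed to 127 CPM in plasma-positive replicate 3 and to at most 2.69 CPM elsewhere.

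The neutrophil genes are described here by granule class, in a grouping whose classes and members were chosen after the values were seen. In it, all 4 specific granule genes (Ltf, Camp, Ngp and Lcn2) had more than 3 counts in plasma-positive replicate 3. None of 4 primary granule genes (Elane, Mpo, Prtn3 and Ctsg) had a count there, and none of 5 genes of late or mature neutrophils (Mmp8, Mmp9, Retnlg, Cxcr2 and Ly6g) had one. Mmp8 is also known as a specific granule protein, so the split between classes depends on where members are placed. Il1r2, a decoy receptor gene of the neutrophil list that mature neutrophils express, is in no class here. It had 32 counts (1.62 CPM) in plasma-positive replicate 3 and 8 (2.69 CPM) in plasma-negative replicate 4. At the depth of plasma-positive replicate 3, 0 counts allow up to 0.152 CPM for each gene not seen. Outside this library, Prtn3 had 19 counts in plasma-positive replicate 1 and the other 8 genes of those classes had 0.

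Levels compared between genes need values per exon length. In plasma-positive replicate 3, S100a8 had 347 RPKM, Ngp 283 and S100a9 263, all above Lyz2 at 170 RPKM in the same library. S100a8 ranked 80 among the 15057 genes listed above 0. Camp had 61.1 RPKM, Ltf 22.2 and Lcn2 13.98, while Ly6c2 had 0.893. P2ry12, encoding a purinergic receptor of resting microglia, was far higher, at 2736 RPKM.

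**Figure D3:**
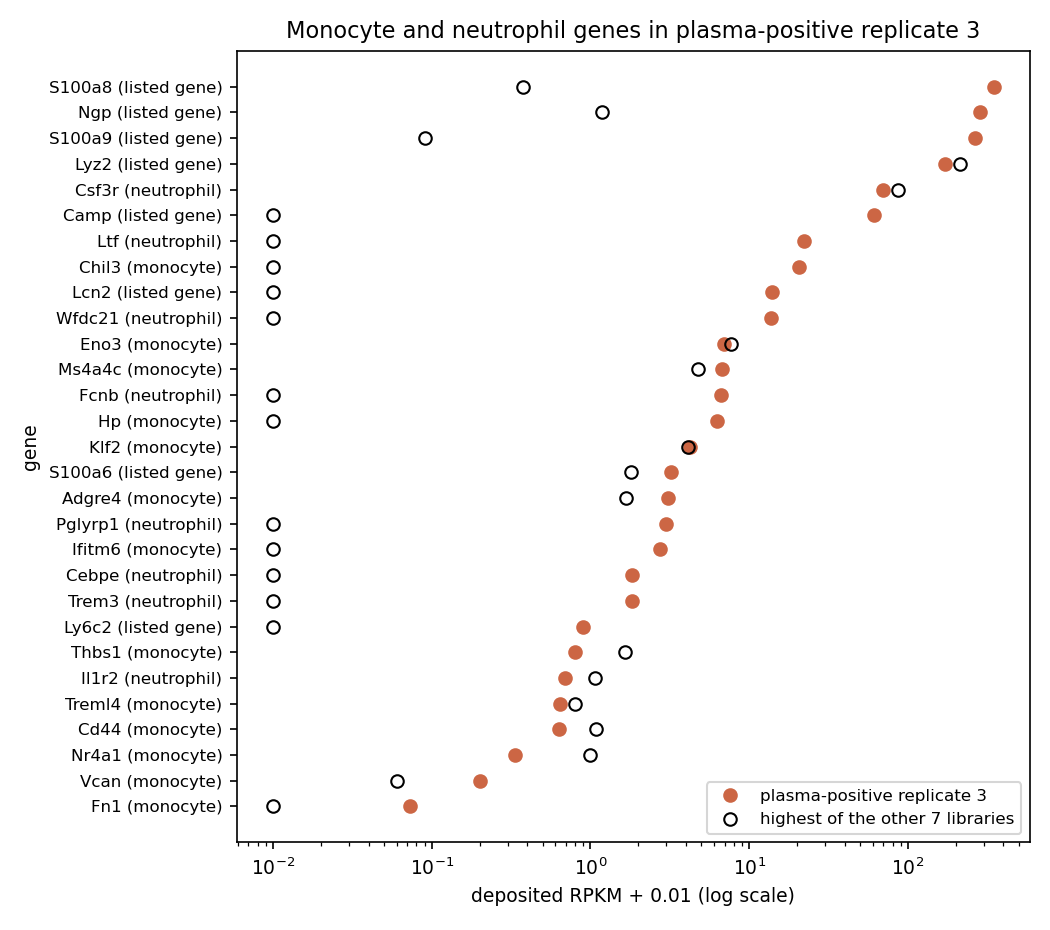
Deposited RPKM + 0.01 (log scale) of the genes among the 10 and of the neutrophil and monocyte genes reported by name that had more than 3 counts in plasma-positive replicate 3. Filled symbols are that library and open symbols the highest of the other 7 libraries. S100a8, Ngp and S100a9 lie at 263 to 347 RPKM, with all other libraries at or near 0, whereas Lyz2, Csf3r and Eno3 have similar values in both.

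Monocyte genes of a second list were seen more often in plasma-positive replicate 3 as well. Of its 21 genes, 14 had more than 3 counts there, against 5 to 9 in each other library, and 5 had more than 3 counts only there. Named after their values were seen, 4 of these were Chil3 with 829 counts (42.1 CPM), a chitinase-like protein that neutrophil precursors also make, Hp, encoding haptoglobin, with 245, Ifitm6 with 61 and Fn1 with 18. None of the 7 tested genes of this list was called. Their median log2 fold change was 0.75, against 0.01 over all genes tested. It was 0.39 without plasma-positive replicate 3 and 0.45 without plasma-negative replicate 3. Eno3 and Thbs1, the highest of the list by mean CPM over all libraries, had log2 fold changes of -0.17 and 0.27 (edgeR, adjusted p = 0.914 and 0.911). The sign of Eno3 turned without plasma-negative replicate 4. Thbs1 was at 0.0065 without plasma-negative replicate 4 and at 0.0058 without plasma-positive replicate 2.

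Apart from Gp9, markers of lymphocytes, platelets, red cells and border macrophages were at low counts in plasma-positive replicate 3 or at similar levels in all. Of 18 lymphocyte genes, 16 were in the table and 9 of these had 0 counts in all libraries. Named after their values were seen, Lck, a T cell kinase gene, had 86 counts in plasma-positive replicate 3 and 9 in replicate 2, while Trac and Nkg7, genes of T cells and of cytotoxic lymphocytes, had 11 and 14 counts in replicate 3 only. The untested genes of the list summed to 5.68 CPM there and to at most 6.39 CPM elsewhere, reached in plasma-negative replicate 4 through Cd5, a T cell antigen, with 19 counts. The B cell receptor subunit gene Cd79b was present in all libraries at 58.4 ± 22.5 and 70.4 ± 17.1 CPM (SD, n = 4; edgeR, adjusted p = 0.759). Of 9 platelet and red cell genes, Gp9, a platelet glycoprotein gene, was at 47.5 ± 12.5 and 80.7 ± 9.66 CPM (SD, n = 4). Its values did not overlap between the groups (29.1 to 55.7 and 71.9 to 93.6 CPM). Gp9 was not called (edgeR, adjusted p = 0.138), though it was with DESeq2 (adjusted p = 0.0482) and with limma on RPKM (0.0271 and 0.0316). Gp1bb was highest at 5.69 CPM in plasma-positive replicate 2. Named after their values were seen, the globin genes Hbb-bs and Hba-a1 were highest in plasma-positive replicate 3, with 48 and 39 counts, and had 23 and 13 in plasma-positive replicate 2 and at most 4 and 2 elsewhere. Border macrophage genes were low but for Stab1 (228 ± 27.1 and 210 ± 23.9 CPM, SD, n = 4; edgeR, adjusted p = 0.757, with a sign that turned on RPKM and under the exon length correction). Mrc1, the mannose receptor gene, had 15.3 CPM in plasma-positive replicate 4, 12.1 in replicate 2 and at most 2.36 in the other 6 (edgeR, adjusted p = 0.429).

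Several markers of neurons, astrocytes and endothelium were highest in another plasma-positive library. Snap25 and Syt1, genes of synaptic vesicle release, had 124 and 71.8 CPM in plasma-positive replicate 2 and 0 and 0.711 CPM in replicate 3. Slc1a2, the astrocyte glutamate transporter gene, had 67.5 CPM in replicate 2 and 1.27 in replicate 3. Cldn5, a tight junction gene of endothelium, had 4.63 and 1.93 CPM in these libraries, 0.550 CPM in plasma-positive replicate 1 and 0 counts in plasma-positive replicate 4 and in all 4 plasma-negative libraries. The 5 endothelial genes too low to test summed to at most 0.336 CPM in plasma-negative libraries. In plasma-positive libraries they summed to 0.447 to 9.71 CPM. The nearest values, both of replicate 4, rest on 1 count in the plasma-negative and 4 counts in the plasma-positive library. In that plasma-negative library 3 counts are worth 1.01 CPM, so a gap between the groups was not resolved. Cldn5 was too low to test, and Snap25, Syt1 and Slc1a2 were not called (edgeR, adjusted p = 0.534, 0.392 and 0.323). Slc1a3, another astrocyte transporter gene, Mbp, a myelin gene, the oligodendrocyte gene Cnp and the endothelial gene Pecam1 were not called by edgeR either (log2 fold changes -0.36, 0.80, 0.71 and 0.31). Cnp did not overlap between the groups (68.9 to 123 and 153 to 182 CPM) and was called with DESeq2 (adjusted p = 0.0250) and with limma on RPKM (0.0389 and 0.0438). Pecam1 lost its direction without plasma-positive replicate 1. Mbp was at 0.068 without plasma-positive replicate 2, and Slc1a3 at -0.19 without plasma-negative replicate 2. The part of these cells in the Lyz2 difference was not tested.

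**Figure D4:**
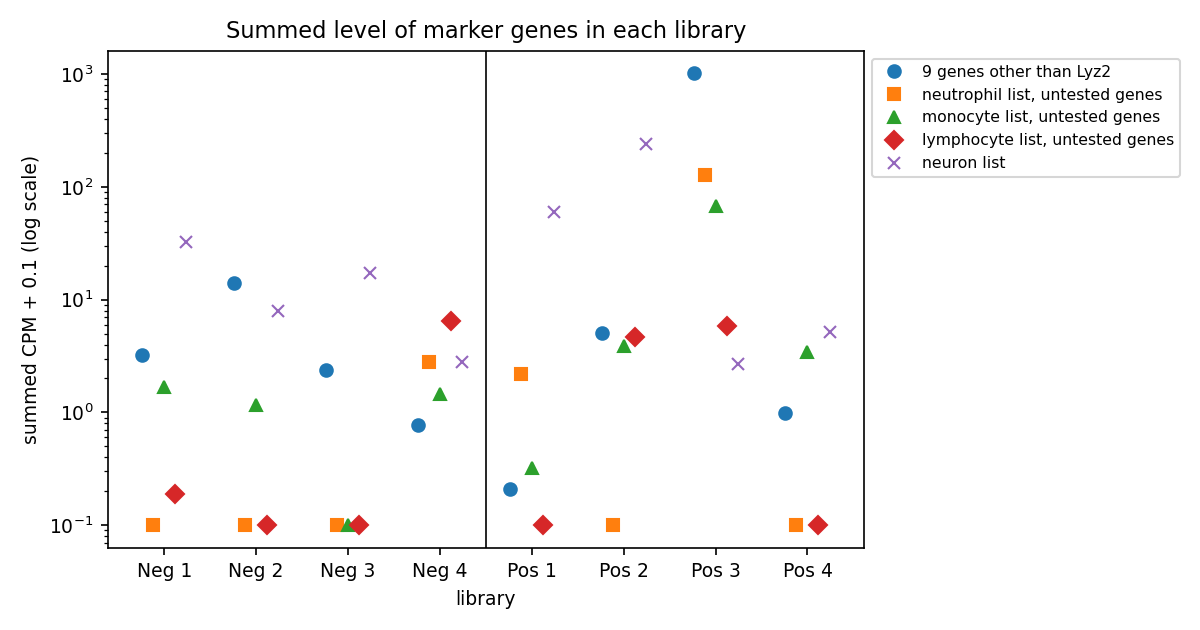
Summed CPM + 0.1 (log scale) in each library for the 9 genes other than Lyz2, for the genes of the neutrophil, monocyte and lymphocyte lists that were too low to test, and for the 5 neuronal genes. The first 3 are highest in plasma-positive replicate 3 (1013, 127 and 68.1 CPM), whereas the neuronal genes are highest in plasma-positive replicate 2 (242 CPM).

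S100 proteins bind annexins and other membrane partners. Of 18 other S100 and annexin genes, 12 were tested and none was called. The median log2 fold change of the 12 was 0.55, against 0.01 for all genes, and 0.55 without plasma-positive replicate 3. The levels of the 18 summed to 559 to 787 CPM in plasma-negative and 863 to 946 CPM in plasma-positive libraries. Anxa3, the highest of them, had 478 ± 70.8 and 571 ± 38.7 CPM (SD, n = 4; edgeR, adjusted p = 0.328), and Anxa7 had 58.0 ± 18.2 and 78.7 ± 20.6 CPM (adjusted p = 0.506). Named after its values were seen, Anxa1, an annexin abundant in neutrophils, had 374 counts in plasma-positive replicate 3 and 0 in the other 7 libraries. Anxa2, the partner of S100A10, had 232 counts there and at most 22 elsewhere.

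Of 11 genes for ligands, receptors and partners of these proteins, 5 were tested and 1 was called, beside 1.41% of all tested genes. Ccl12, a mouse ligand of CCR2, rose in plasma-positive libraries. It had 37.0, 29.8, 39.997 and 21.5 CPM in the plasma-negative and 100.1, 74.7, 122 and 153 CPM in the plasma-positive libraries, which did not overlap. The log2 fold change was 1.79 ± 0.26 (SE, edgeR, adjusted p = 0.00732). In the fit that combines the replicate number with the exon length correction, Ccl12 was not called (1.57, edgeR, adjusted p = 0.0880). Its receptor gene Ccr2 was at 0 in plasma-negative replicates 3 and 4 and in 3 of the 4 plasma-positive libraries. Tlr4, a receptor for S100A8, was at 130 ± 29.1 and 155 ± 27.1 CPM and was not called (edgeR, adjusted p = 0.610). Ccr2 was not called in any edgeR fit that tested it.

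Each library had genes that were nearly absent from all others. At 5 CPM or more in 1 library and at most 3 counts in all others, plasma-positive replicate 3 had 33 such genes. Plasma-positive replicate 2 had 31 and the other libraries had 6 to 13. Their summed level was 948 CPM in plasma-positive replicate 3 and 237 CPM in replicate 2. In replicate 3 they included 4 of the 10 genes, 4 of the neutrophil list and 2 of the monocyte list, and in every other library none of these. The 6 highest were S100a8, S100a9, Ltf, Camp, Lcn2 and Chil3, followed by Cd177, a neutrophil surface antigen, with 450 counts, and Cxcl9, an interferon-induced chemokine, with 413.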

How the data were processed

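RNA of sorted microglia was made into Smart-seq2 libraries, per the labels' protocols. The authors deposited read counts per gene and RPKM values for 35583 genes, 1 column per library and top hits only, per the file headers. STAR, HTSeq, Trim Galore and bcl2fastq on build mm10 are named, per the submitters' processing notes, without roles. Multi-mapping and strand settings are not given in the sources used here. Another 16 per-sample columns, of spreads, were not used. All 13 mitochondrial genes were listed at 0. Groups and replicate numbers came from the titles.

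Counts were tested in R 4.3.3 with edgeR 4.0.16 (TMM, default filter by group, quasi-likelihood test, Benjamini-Hochberg adjustment over all tested genes, called under 0.05), checked on simulated data. SEs were derived from the F statistic. CPM uses TMM factors. Alternatives were other scalings and filters, DESeq2 1.42.0, limma 3.58.1 on log2(RPKM + 1 or 0.1), the replicate number as a block, a loess correction for exon length (span 0.3, length from counts over RPKM), and leaving out each library. Genes named were the 10, and from each list up to 4 called genes and the 2 highest, and the 5 genes most like Lyz2; others are marked as named after their values were seen. Genes and lists were chosen with earlier results of these data known. Some genes of the lists are counted but not reported here by name. Annotation was GENCODE M21, and promoters were from RefSeq.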

Additional observations from a re-analysis of the deposited data

Results flagged for a closer look

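In 22 of 78 groups of 4 libraries checked, 1 library lay far from the other 3, and 12 of the 22 concern plasma-positive replicate 3. In 13 of the 22 the other 3 libraries had no count, so that any count meets the criterion and no chance rate applies. The chance rate of about 5% bears only on the other 9, which in plasma-positive replicate 3 are S100a8, Ngp, Eno3, Cnp and the sum of the 9 genes other than Lyz2. In plasma-positive replicate 3 the value and the nearest other plasma-positive value were 299.9 and 0.110 CPM for S100a8, 171 and 0 for S100a9, 430.4 and 0.894 for Ngp, 57.6 and 0 for Camp, 45.6 and 0 for Lcn2, 95.1 and 0 for Ltf, and 3.05 and 0 for Ly6c2. The sum of the 9 genes other than Lyz2 was 1013 CPM, against 4.93. Plac8 at 0.102 CPM and Lyz1 at 0.0508 CPM rest on 2 counts and 1 count. Eno3 at 15.0 CPM, against 10.8, and Cnp, an oligodendrocyte gene, at 182 CPM, against 154, were also the highest of the 4 plasma-positive values in this library.

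In plasma-negative replicate 3, Ngp was at 1.98 CPM, against 0.336, Plac8 at 0.175 CPM and S100a9 at 0.0582 CPM, the last 2 on 3 counts and 1 count. In plasma-positive replicate 2, Ccr2 was at 1.93 CPM, Cd5 at 2.90, Ly6c1 at 3.30 and Syt1 at 71.8. In plasma-negative replicate 4, Cd5 was at 6.39 CPM and Csf1r at 11473 CPM, against 10577. In plasma-negative replicate 1, Gp1bb was at 0.221 CPM, on 5 counts.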

How the results depend on the processing

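Lyz2 was higher in plasma-positive microglia in all 19 other fits and was called in 18. The exception joined the replicate block to the exon length correction, with a log2 fold change of 1.05 (edgeR, adjusted p = 0.0619), so that 0 of the 10 genes were called there. Ccl12 and Lgals3bp lost their calls in the same fit (1.57 and 0.80, adjusted p = 0.0880 and 0.0817). With the replicate block alone Lyz2 was at 1.25 (edgeR, adjusted p = 0.00983), and Mt1 and Idh3b lost their calls (adjusted p = 0.0722 and 0.0775). Same-numbered libraries deviated from their group means with correlations of 0.0109 to 0.0315 across genes (mean 0.0167, against -0.0056 for other pairs). Of the 4 plasma-negative libraries, 1 correlated best with its own number. The labels do not say whether same-numbered libraries share an animal or a sort, and correlations this low cannot settle it. The number of genes called was 187 (112 higher and 75 lower). It was 74 with the replicate block, 67 with the exon length correction, 10 with both, 694 with DESeq2, 447 and 432 with limma on log2(RPKM + 1) and log2(RPKM + 0.1), 407 at an adjusted p under 0.1, and 66 to 203 when each library was left out. The share of calls that were higher was 59.9%, but 28.2% with library totals only, where the median of all genes shifted to -0.11, 47.8% with DESeq2, 86.8% and 85.6% with limma on RPKM (medians 0.11 and 0.16) and 70.3% with the replicate block. Signs that turned belong to genes that were not called. Csf3r was -0.044 with library totals only, -0.040 with the exon length correction, -0.043 with that and the replicate block, and -0.012 to 0.12 when each library was left out (-0.012 without plasma-positive replicate 2). Stab1 was 0.0076 and 0.0079 with limma on log2(RPKM + 1) and log2(RPKM + 0.1), and 0.13 with the exon length correction with or without the block. Leaving out each library gave -0.32 to 0.013 for Eno3, the last without plasma-negative replicate 4, and -0.0014 to 0.58 for Pecam1, the first without plasma-positive replicate 1. Apart from fewer samples or genes in some fits, the cause of these differences was not tested. Levels under 1.01 CPM, the worth of 3 counts, could not be seen in the smallest library.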
